A study of Mus musculus with 2 samples.

Results

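The genes described here are 9 voltage-gated potassium channel genes that repolarise the heart muscle cell. They were taken by symbol from the authors' deposited table of 38355 genes, and each symbol had 1 row there. They comprise the pore subunits Kcnd2, Kcnd3, Kcna4, Kcna5, Kcnq1 and Kcnh2 and the auxiliary subunits Kcnip2, Kcne1 and Kcnab1. All 9 had reads and were tested there.

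RNA of cardiac ventricles was sequenced from C57BL/6 mice aged 16 weeks. The vTBX5KO sample carried Myh6-MerCreMer, a Cre recombinase that needs an oestrogen receptor ligand to act, and Tbx5LDN/LDN, and the Flox sample carried Tbx5LDN/LDN without the Cre transgene. Myh6 drives expression in cardiomyocytes, so other cells of the ventricle lack this Cre. Both genotypes have the same protocol text, which gives 3 days of TX at 30 mg/kg/day to mice of 12 weeks and collection 4 weeks after it. The study set one genotype against the other to see what loss of the T-box factor Tbx5 in ventricular myocytes does to the transcriptome. Only vTBX5KO carried the Cre transgene, so its presence and the loss of Tbx5 cannot be told apart in this design. The values are of 1 comparison named group B against group A. No source used here says which letter is which genotype, and it was not inferred from the values, so every direction is group B relative to group A.

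After each beat, potassium channels that open with voltage carry current out of the myocyte and end the action potential. In the mouse ventricle the fast transient outward current flows through channels of Kcnd2 and Kcnd3 with the calcium-binding subunit of Kcnip2, and a slower transient current flows through channels of Kcna4. Kcna5 carries a delayed current of the adult mouse ventricle. Kcnq1 with Kcne1, and Kcnh2, form the slow and rapid delayed rectifiers, which are prominent in large mammals and small in adult mouse ventricle.

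The pooled means resolved into 6 libraries, B1 to B3 and A1 to A3, numbered from the deepest, with size factors of 0.61 to 1.56. The table does not hold total reads. No label says whether the 3 libraries of a group are 3 mice, so the p-values reflect variation among these libraries, and that variation may be technical. Over 2958 genes with recovered reads and a mean of at least 20, log2 levels in B3 correlated less with B1 (Pearson r = 0.57) than with B2 (r = 0.74) or A2 (r = 0.68), so B3 stood apart from B1. A3, the shallowest library, also had low correlations, 0.58 with B1, 0.60 with B2 and 0.65 with B3. With A1 and A2 it reached 0.68 and 0.72. The atrial marker Bmp10 was at 2.56, 17.0 and 1.12 normalized reads in B1, B2 and B3, against 0, 0 and 72.5 in A1, A2 and A3. A call means an adjusted p under 0.05. In the authors' deposited table, 0 of 8 cardiomyocyte markers were called, and their pooled means ran from 30950 to 579178 normalized counts. At a threshold of 0.1, the myosin light chain Myl2 (adjusted p = 0.0572) and the calcium release channel Ryr2 (adjusted p = 0.0671) would be called lower in the authors' deposited table.

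Kcnip2 alone among the 9 genes was called, and it was lower in group B. The gene (ENSMUSG00000025221) lies on the minus strand of chromosome 19, from 45791839 to 45816061 on GRCm38. It encodes KChIP2, which binds the pore subunits of the fast transient outward channel and raises their number at the cell surface. The authors' deposited table gives a log2 fold change of -0.80, that is 1.74-fold lower in group B, with an adjusted p of 2.46e-12. The standard error implied by that p is at most 0.10, which gives a 95% interval of -1.00 to -0.60. The pooled mean of 2275 normalized counts and this fold change imply group means of 1660 in group B and 2891 in group A. Deposited fold changes appear shrunken toward 0, so implied means here and below may lie too close together. Kcnip2 had too many reads for the libraries to be recovered one by one, so whether groups overlap cannot be given for it.

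Of all 13230 genes tested in the authors' deposited table, 3.98% were called, 2.49% lower and 1.50% higher in group B. Among the 1102 genes with a mean at or above that of Kcnip2, 6.99% were called lower in the authors' deposited table. At thresholds of 0.01 and 0.1 in the authors' deposited table, 1.49% and 3.59% of genes were called lower and 0.733% and 2.32% higher, and Kcnip2 was again the single call among the 9. The count of 1 of 9 is a result about Kcnip2 and not about the channels as a group. The median of the 9 log2 fold changes was -0.17 in the authors' deposited table, beside -0.00 over all tested genes. Of the 9 values 6 were negative and 3 positive. In whole ventricle, fewer cells of a type and less RNA per cell cannot be told apart. Of the 8 cardiomyocyte markers, 7 had a negative log2 fold change in the authors' deposited table, with a median of -0.10. Ryr2 at -0.71 and Myl2 at -0.70 were nearly as low as Kcnip2 in the authors' deposited table, with intervals of -1.19 to -0.24 and -1.15 to -0.25. The 6 other markers lay between -0.14 and 0.13 in the authors' deposited table. The summed group means implied for the 8 were 1233160 in group B and 1407790 in group A. In group B and group A, Myh6 made up 553823 and 604534 of these sums, Myl2 126421 and 205273, and Ryr2 51182 and 83973. Actn2 was the nearest to 0 of the 8 in the authors' deposited table, at -0.006 with an interval of -0.41 to 0.40. Of the 7 conduction system markers, 1 was called, the T-type calcium channel Cacna1g at -1.15 in the authors' deposited table. Their log2 fold changes were 6 negative and 1 positive, Etv1 at 0.56 (adjusted p = 0.125 in the authors' deposited table). The summed implied means of the list were 754 in group B and 1121 in group A, of which Cacna1g made up 148 and 328. The part of cell makeup in the Kcnip2 value was not tested.

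**Figure D1:**
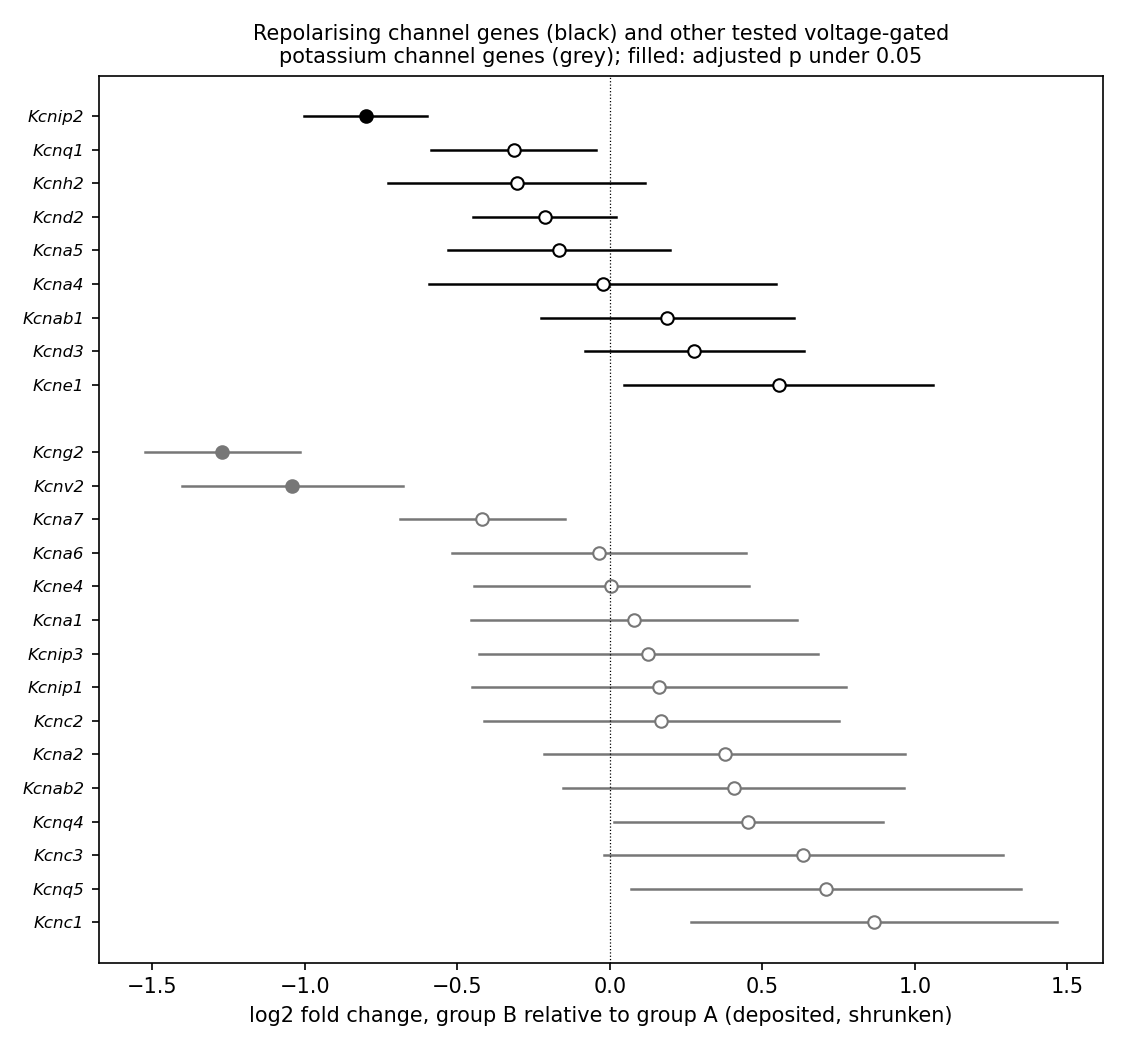
Deposited log2 fold change of group B relative to group A for the 9 repolarising channel genes (black) and 15 other tested voltage-gated potassium channel genes (grey), with 95% intervals from the largest standard error that each adjusted p allows. Filled points are called at an adjusted p under 0.05, and these are Kcnip2 (-0.80), Kcng2 (-1.27) and Kcnv2 (-1.04).

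The start region of Kcnip2 is shown because it is the called gene of the set and Tbx5 acts by binding DNA. The region of Kcnd2, its pore partner, stands beside it for comparison. Both run from 250 bases before to 50 bases after the RefSeq start, on GRCm38.p6. The Kcnip2 window is chr19:45816014-45816313 on the minus strand and the Kcnd2 window is chr6:21215096-21215395 on the plus strand. Capitals mark GGTGT, the inner letters of the T-box element, on either strand.
Kcnip2: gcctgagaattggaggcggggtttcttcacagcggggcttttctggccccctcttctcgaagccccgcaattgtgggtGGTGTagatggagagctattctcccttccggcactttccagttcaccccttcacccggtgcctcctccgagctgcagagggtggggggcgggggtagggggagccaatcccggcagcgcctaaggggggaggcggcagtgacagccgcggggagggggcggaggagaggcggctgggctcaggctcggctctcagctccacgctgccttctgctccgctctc
Kcnd2: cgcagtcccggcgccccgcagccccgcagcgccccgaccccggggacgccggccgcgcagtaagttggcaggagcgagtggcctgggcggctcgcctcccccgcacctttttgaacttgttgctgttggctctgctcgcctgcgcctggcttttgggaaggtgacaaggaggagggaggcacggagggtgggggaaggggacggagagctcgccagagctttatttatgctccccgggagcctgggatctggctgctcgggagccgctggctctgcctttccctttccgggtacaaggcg
The Kcnip2 window holds GGTGT once and the Kcnd2 window does not hold it. GGTGT was present on either strand in 41.6% of 32851 windows of all genes, and in 5 of the 9 windows of the 7 channel genes that matched the table. Besides Kcnip2, these were the windows of Kcnd3, Kcna4, Kcnh2 and Kcna5, which were not called, so the motif did not set the called gene apart. The longer forms AGGTGT and AGGTGTGA, which contain GGTGT, were in 13.7% and 1.28% of all windows and in 0 of these 9. The matches are a description of letters in these windows.

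The pore subunits that pair with KChIP2 were not called. Kcnd2 (chromosome 6, 21215503 to 21729805), the main pore of the fast transient outward channel in mouse, had a log2 fold change of -0.21 in the authors' deposited table (adjusted p = 0.417), with an interval of -0.45 to 0.02. Its pooled mean of 1152 normalized counts implies 1067 in group B and 1237 in group A. Kcnd3 (chromosome 3, 105452330 to 105674002), another pore of this family, had a log2 fold change of 0.28 in the authors' deposited table (adjusted p = 0.535), with an interval of -0.08 to 0.64. Its implied means were 595 normalized counts in group B and 491 in group A. The interval of Kcnip2 lies below both of these intervals, and the difference between genes was not tested. The exons of Kcnd3 share 165 bases with Kcnd3os on the opposite strand, and no source used here says whether counting used strand.

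**Figure D2:**
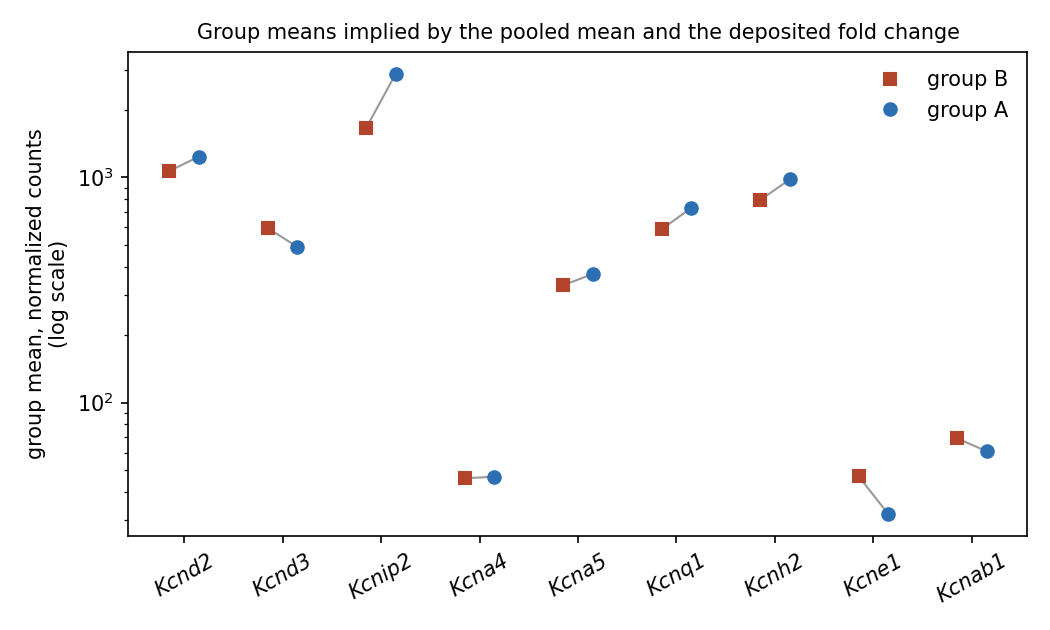
Mean normalized counts of group B (squares, left of each pair) and group A (circles), on a log scale, computed from the pooled mean and the deposited fold change of each gene, with no error shown because the libraries behind the higher genes are not separable. Kcnip2 has the widest gap in counts, 1660 in group B and 2891 in group A.

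Kcna4 (chromosome 2, 107290639 to 107298502), the pore of the slow transient outward channel, was read at a low level in these ventricles, and its value differed more within group B than between the groups. Its recovered reads divided by size factor were 68.4, 41.4 and 26.9 in B1, B2 and B3, against 38.9, 54.0 and 49.4 in A1, A2 and A3. B1 was the highest of the 6 libraries and B3 the lowest, so the groups overlapped fully. The group means were 45.6 ± 21.04 in group B and 47.5 ± 7.73 in group A (SD, n = 3 libraries). In the authors' deposited table the log2 fold change was -0.02 (adjusted p = 0.990). The log2 ratio of the recovered means was -0.06, and it ran from -0.47 without B1 to 0.21 without B3.

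Kcna5 (chromosome 6, 126532553 to 126698192), the pore of a slowly inactivating delayed current in mouse ventricle, was not called. Its log2 fold change was -0.17 in the authors' deposited table (adjusted p = 0.788), with an interval of -0.53 to 0.20. Its implied means were 332 normalized counts in group B and 372 in group A. The deposited gene model of Kcna5 spans 165640 bases and encloses Kcna1, a related pore gene with a mean of 87.4, whereas its exons in GENCODE M21 cover 2862 bases. No source used here says how reads in the span were assigned, so the Kcna5 value is uncertain. Kcnab1 (chromosome 3, 65109384 to 65378223) encodes a cytoplasmic beta subunit that speeds inactivation of Kcna channels. It stood at 57.5, 73.9 and 79.7 normalized reads in B1, B2 and B3, against 62.3, 62.8 and 54.4 in A1, A2 and A3. B1 lay inside the range of group A, so the groups overlapped. The group means were 70.4 ± 11.5 in group B and 59.8 ± 4.74 in group A (SD, n = 3 libraries; exact permutation test, two-sided, p = 0.3). The authors' deposited table gives a log2 fold change of 0.19 (adjusted p = 0.789), and 201 bases of its exons are shared with A330015K06Rik on the opposite strand.

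Neither pore of the delayed rectifiers was called. Kcnq1 (chromosome 7, 143107254 to 143427042), the pore of the slow delayed rectifier, had a log2 fold change of -0.32 in the authors' deposited table (adjusted p = 0.219). Its interval of -0.59 to -0.05 is not adjusted for the number of genes tested and leaves out 0. The implied means of Kcnq1 were 588 normalized counts in group B and 732 in group A. The exons of Kcnq1 share 121 bases with the antisense RNA Kcnq1ot1. Kcnh2 (chromosome 5, 24319589 to 24351604), the ERG pore of the rapid delayed rectifier, had a log2 fold change of -0.31 in the authors' deposited table (adjusted p = 0.583), with an interval of -0.73 to 0.12. The implied means of Kcnh2 were 792 normalized counts in group B and 979 in group A.

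Kcne1 (chromosome 16, 92346001 to 92359468), the single-span subunit that slows the opening of Kcnq1 channels, had the highest of the 9 log2 fold changes and did not pass the test. Its normalized reads were 44.1, 43.6 and 59.5 in B1, B2 and B3, against 28.6, 40.2 and 21.4 in A1, A2 and A3. All libraries of group B were above all of group A, with B2 and A2 the nearest. Among 5336 genes with a mean from 5 to under 100, 18.8% had groups that did not overlap. The group means were 49.1 ± 9.04 in group B and 30.1 ± 9.48 in group A (SD, n = 3 libraries), a ratio of 1.63. The exact permutation test, two-sided, gave p = 0.1, the smallest value that 3 libraries against 3 can give. The authors' deposited table gives a log2 fold change of 0.55 (adjusted p = 0.269), with an unadjusted interval of 0.05 to 1.06. A limma-voom refit of the recovered reads gave 0.67 ± 0.28 (SE) with an adjusted p of 0.323, in a fit that called 0.487% of its 5336 genes. The log2 ratio of the recovered means was 0.71, 0.51 without A3, the library highest for Bmp10, and 0.54 without B3. It was 0.97 without A2. The part of atrial tissue in the Kcne1 value was not tested.

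**Figure D3:**
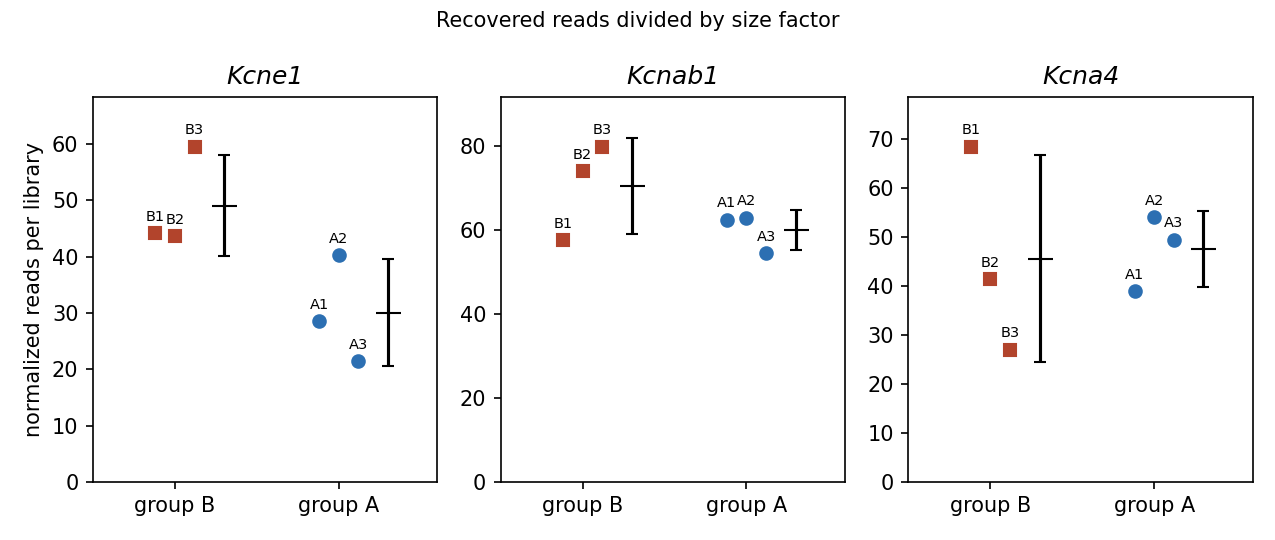
Recovered reads divided by size factor in each library of group B (squares) and group A (circles) for Kcne1, Kcnab1 and Kcna4, with the mean and SD of each group (black, n = 3 libraries). The groups are apart for Kcne1, with the lowest library of group B at 43.6 and the highest of group A at 40.2, and overlap for the other genes.

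Per kilobase of exon, Kcnip2 stood above the pore subunits it serves. Its pooled level was 655 normalized counts per kilobase of all annotated exons, higher than in 92.9% of tested genes. Kcnd2 had 224, Kcnh2 183, Kcnq1 161, Kcna5 123 and Kcnd3 56.7 normalized counts per kilobase. The place of Kcna5 is uncertain, since its count comes from the wide deposited gene model that encloses Kcna1 and its length from the GENCODE M21 exons. Kcne1 had 12.3, Kcna4 9.62 and Kcnab1 7.58, higher than in 11.6%, 8.79% and 6.60% of tested genes.

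The library values of Kcne1 ran from 6.66 to 18.5 normalized counts per kilobase, those of Kcna4 from 5.57 to 14.2 and those of Kcnab1 from 6.33 to 9.27. Within libraries, Kcne1 stood above Kcnab1 in 6 of 6 and above Kcna4 in 4 of 6, and Kcna4 stood above Kcnab1 in 4 of 6. The implied levels per kilobase of Kcnh2 were 164 in group B and 202 in group A, and those of Kcnq1 were 144 in group B and 179 in group A. The order depended on the length used. With the longest transcript, Kcnq1 had 218 and Kcnh2 210 normalized counts per kilobase, and Kcnab1 stood above Kcne1, with 14.9 against 12.5. Kcnip2 remained first under both lengths. In group B its implied level was 477 normalized counts per kilobase beside 207 for Kcnd2, and in group A 832 beside 240.

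**Figure D4:**
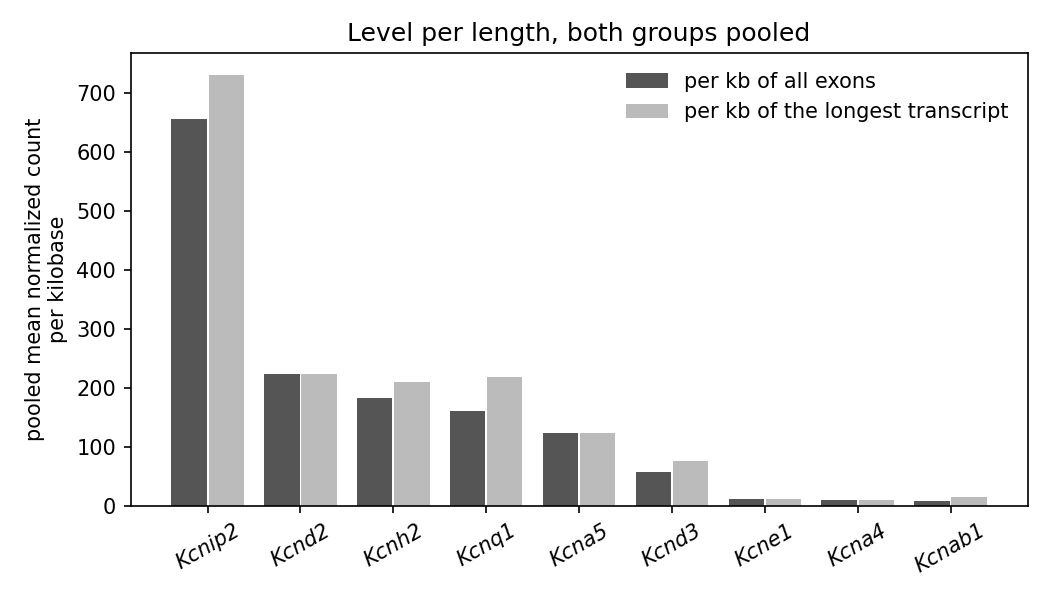
Pooled mean normalized count of both groups per kilobase, for the union of all GENCODE M21 exons (dark bars) and for the longest transcript (light bars). Kcnip2 is first at 655 per kilobase of exon and 731 per kilobase of the longest transcript.

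Of 15 tested genes among 44 other voltage-gated potassium channel genes, 2 were called and both were lower in group B. Over all genes tested in the authors' deposited table, 3.98% were called and 2.49% were called lower. Of the 44, 40 had reads, and the authors' deposited table gives an adjusted p for 15. The called genes encode electrically silent pore subunits, which form no channel alone and modify other pore subunits. Kcng2 had a log2 fold change of -1.27 in the authors' deposited table (adjusted p = 2.11e-19), with an interval of -1.52 to -1.01. Its implied means were 675 normalized counts in group B and 1627 in group A. Kcnv2 had a log2 fold change of -1.04 in the authors' deposited table (adjusted p = 3.80e-06), with implied means of 260 normalized counts in group B and 536 in group A. The part of cell makeup in these values was not tested either.

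The other 13 were not called, and the median of all 15 was 0.16 in the authors' deposited table. A pair of uncalled pore genes, named after their values were seen, were nearest to the threshold. Kcna7, a muscle channel of the same family as Kcna5, was at -0.42 in the authors' deposited table (adjusted p = 0.0570). Kcnc1, a fast delayed rectifier of neurons, was at 0.87 in the authors' deposited table (adjusted p = 0.0870). Its normalized reads were 92.0, 55.4 and 49.4 in B1, B2 and B3, against 21.6, 45.2 and 16.5 in A1, A2 and A3, so the groups did not overlap, as in 18.8% of genes in this range of means. The limma-voom refit gave Kcnc1 a log2 fold change of 1.33 ± 0.36 (SE) with an adjusted p of 0.131, which passed with no filter on low means (adjusted p = 0.00484) and without B3 (adjusted p = 0.0348). Kcnc1 did not pass when any other library was left out, with a limma-voom adjusted p of 0.560 without A1. Of 4 tested auxiliary subunits outside the 9, Kcnab2 (0.41) and Kcnip1 (0.16) came nearest to a call in the authors' deposited table, with adjusted p-values of 0.579 and 0.907.

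Genes listed as partners of these channels, of mixed function, had 0 calls among 7 in the authors' deposited table, with a median of -0.01. The nearest was Flna, the filamin that links channels of Kcnd2 to actin, at 0.36 (adjusted p = 0.0676 in the authors' deposited table), followed by the scaffold Dlg1 at -0.16 (adjusted p = 0.515). Of 3 transcription factors known to act on these genes in mouse heart, 0 were called in the authors' deposited table. All 3 had negative log2 fold changes, with a median of -0.54. Irx5, a repressor of Kcnd2 in mouse, was at -0.66 in the authors' deposited table (adjusted p = 0.203), and Irx3 at -0.54 (adjusted p = 0.171). Their unadjusted intervals, -1.21 to -0.11 and -0.97 to -0.11, leave out 0. Klf15, an activator of Kcnip2 in mouse, was at -0.10 in the authors' deposited table (adjusted p = 0.721), with an interval of -0.29 to 0.08.

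Markers of other cells had few calls in the authors' deposited table. There were 0 calls among 3 tested atrial markers, 5 smooth muscle markers, 5 endothelial markers and 5 fibroblast markers, with medians of -0.13, 0.14, -0.05 and 0.16. The atrial markers Nppa and Bmp10 had no adjusted p, with log2 fold changes of -0.47 and -0.09. Their pooled means were 2104 and 15.5 normalized counts, and A3 was the library highest for Bmp10. Of 2 tested nerve markers, only Dbh, the enzyme that makes noradrenaline, passed, and the authors' deposited table puts it at -1.79 on the log2 scale. The other, Stmn2, was at -0.24 (adjusted p = 0.690 in the authors' deposited table). Snap25, Prph and Th had no adjusted p, with pooled means of 3.47, 6.62 and 0.27 normalized counts. Of these Prph had a positive log2 fold change, 0.29, and the others negative ones. The negative values rest on A3, the only library of group A with reads of Snap25 (9) or Th (1). Snap25 had 3, 1 and 3 reads in B1, B2 and B3. Dbh thus does not stand for the nerve list as a whole.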

How the data were processed

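The members and gene lists were chosen with earlier results of these data known. The single deposited table holds 1 comparison. The submitters' processing notes name Bowtie2 2.0, DESeq2 and the build mm9, and do not say which step each served. No source used here says how reads were counted. Per the file headers, the authors deposited a mean normalized count pooled over all libraries (a signal), an adjusted p-value and a log2 fold change, with the genomic span of each gene. No header says that the fold changes are shrunken; this was inferred, since single-read genes had absolute log2 fold changes under 0.1. Coordinates are given as GRCm38, since 25481 of 36602 matched genes (69.6%), among them 6 of the 9 members, had identical coordinates in GENCODE M21.

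Standard errors are upper bounds, from the largest p that each adjusted p allows under Benjamini-Hochberg adjustment over 13230 genes, and assume a normal test statistic. Group means were implied from the pooled mean and the fold change. Since the fold changes appear shrunken, implied means can lie closer together than true ones, and the intervals are centred on shrunken values. For Kcne1 the implied means were 47.1 in group B and 32.1 in group A, against 49.1 and 30.1 from recovered reads. Reads per library were solved from the pooled means, as whole numbers times 6 steps shared by many single-read genes. For means under 100, 13379 of 13403 genes (99.8%) had 1 set, and the solver was checked on made-up reads. These reads were refitted with limma 3.58.1 (voom) at means of at least 5. The count test on deposited counts was not possible. The planned named genes were the 9 members, the called genes of each list or else the 2 with the smallest adjusted p, and the 2 genes most like each recovered member. Some genes of the lists were named outside this rule. Among these are Kcna7, Kcnc1, Kcnq5, Kcna3, Etv1, Klf15, Stmn2, Myh6, Actn2 and the markers without an adjusted p. One gene of the lists is not reported here. Alternatives were other thresholds, lengths, a pseudocount of 1 and leaving out libraries. Scripts used Python 3.11.15, scipy 1.17.1 and R 4.3.3.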

Additional observations from a re-analysis of the deposited data

How the results depend on the processing

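Kcnip2 was the single called gene of the 9, lower in group B, at adjusted p thresholds of 0.01, 0.05 and 0.1 of the authors' deposited table, and 0 were called higher. Among the other voltage-gated potassium channel genes, 1 was called higher at a threshold of 0.1 against 0 at 0.05. The limma-voom refit of recovered reads called 9 genes higher and 17 lower in group B, with 711 of 5336 at an unadjusted p under 0.05. With no filter on low means it called 165 higher and 59 lower of 13379 genes. Leaving out 1 library gave 0 to 135 higher and 0 to 34 lower calls, the most without B3 and none without A1 or A2. Without B1 it called 30 higher and 26 lower, without B2 4 and 0, and without A3 8 and 11. Kcna4, Kcne1 and Kcnab1 were called in none of these refits. Among the other channel genes, Kcnc1 and Kcnq5 were called higher with no filter (limma-voom adjusted p = 0.00484 and 0.0264) and without B3 (0.0348 and 0.0409), and Kcna3 with no filter (0.0392). With the filter and all libraries, Kcnc1 and Kcnq5 were not called (0.131 and 0.154). Nor were they called when a library other than B3 was left out, with limma-voom adjusted p-values of 0.560 and 0.624 without A1. No paired analysis was possible because the table carries no replicate numbers. No symbol of the 9 had another row. Depth limits Kcna4, Kcne1 and Kcnab1, with 13 to 107 reads per library. The deposited values could not be refitted without a library.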

Other observations

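Over the 6 libraries, the genes most like Kcne1 among 2958 searched were Slc16a4 and Hells (Pearson r = 0.995 and 0.994 on log2 levels), those most like Kcna4 were Sf3b4 and Tbc1d25 (0.983 and 0.981), and those most like Kcnab1 were Pttg1 and Tacc3 (0.970 and 0.961). These values describe 6 libraries and share their depth. Each is among the highest of 2958 correlations over 6 points, where high values can arise by chance, and shared regulation was not tested. Among channel genes without an adjusted p, Kcna3, a channel of lymphocytes and macrophages named after its values were seen, had normalized reads of 9.59, 6.65 and 3.37 in B1, B2 and B3, against 0.87, 0 and 1.65 in A1, A2 and A3.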
